A study of Drosophila melanogaster with 4 samples.

Results

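Compact regions of trimethylated histone H3 lysine 79 (H3K79me3) are the enriched regions of 2 to 4 kb that lie off the X chromosome. They were chosen by the width measured in the authors' series-wide list, as every enriched region with a width of at least 2000 bp and below 4000 bp on any sequence other than X. This gave 1652 regions out of 6152 enriched regions in all, or 33.0% of the 5012 that are not on X. H3K79me3 was mapped by ChIP-seq, the sequencing of DNA that an antibody pulls down with the chromatin, in Drosophila melanogaster embryos of the strain Oregon-R. The embryos are wild type and labelled 14-16 hr, while the collection protocol gives only an upper limit of age. The groups are 2 H3K79me3 ChIP samples and 2 input samples, all of the same strain, genotype and stage and all listed with 1.8% formaldehyde. Each ChIP replicate has its own list of enriched regions, the whole series has another, and input values were not used here. Whole embryos mix muscle, nerve, epidermis and other tissues, so fewer marked cells and less mark per cell cannot be told apart in any value given here. Since no label names the embryo collection behind a replicate, the replicate spread could be purely technical.

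Lysine 79 lies on the surface of the nucleosome core rather than in a histone tail. In flies it is methylated by Grappa, the counterpart of Dot1, and the mark is known from the bodies of transcribed genes, most of all their 5′ parts. Wide marked stretches are known from long or closely packed active genes, whereas a region of a few kilobases has the length of a short gene or of the start of a longer one. The lists follow FlyBase r5. Genes were not assigned to regions, because the gene table at hand follows another release, and regions are named by position.

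The width in the series-wide list chose the members, and the score comes from the same calls. Widths and scores are therefore descriptions, and no test was made on them. Compact regions were 2752 bp wide at the median (quartiles 2322.5 and 3298 bp) and covered 4.69 Mb, or 16.3% of the 28.8 Mb marked off the X. Their scores, on the authors' own scale, had a median of 0.60 with quartiles of 0.440 and 0.946, and ran from 0.131 to 2.69. Regions under 2 kb had a median score of 0.310 and regions of 4 to 10 kb one of 1.16. The compact class thus lay between its neighbours in width, and only 42 of its regions (2.54%) scored at or below the median of regions under 2 kb. The regions of 10 kb or more had a median score of 1.59, and 87 compact regions (5.27%, 95% Wilson interval 4.29 to 6.45%) scored at least as high, beside 15.8% of all enriched regions off the X.

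Score went up with width inside the class. In 4 groups of 413 regions ordered by width, the median was 0.435 in the narrowest group (2001 to 2321 bp), 0.644 in the next, 0.742 in the one after it and 0.804 in the widest group (from 3301 bp). Across the 1652 regions, which come from the same libraries and are not independent, width and score had a Spearman's rho of 0.45. The limits cut through a continuous range. The 5 regions just inside the lower limit (2001 to 2003 bp) scored 0.365 to 0.401, and the 5 just outside it (from 1997 bp) scored 0.340 to 0.380. At the upper limit, the 5 just inside (from 3995 bp) had a median of 1.16 and a highest score of 1.55, and the 5 just outside (4003 to 4007 bp) had a median of 1.05 and a highest score of 1.42.

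In the replicates the same places were called slightly narrower. A replicate region was matched to a compact region when their overlap covered at least 50% of both lengths, which was met by 1577 compact regions in replicate 1 and by 1431 in replicate 2. The matched regions had 0.966 and 0.927 times the series-wide width at the median, with each end set inward by about the same distance (medians of 41 bp and 39 bp in replicate 1, 81 bp and 82 bp in replicate 2). Of the 1402 compact regions matched in both replicates, 1078 (76.9%) were narrower in both. The matched region was also 2 to 4 kb wide in 84.4% of cases in replicate 1 and in 77.8% in replicate 2, or 81.1% ± 4.68 (SD, n = 2). Nearly all others were under 2 kb, at 15.0% and 20.8%, and only 0.634% and 1.40% reached 4 kb. The match itself limits the partner's width to between 50% of the member's width and its double.

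**Figure D1:**
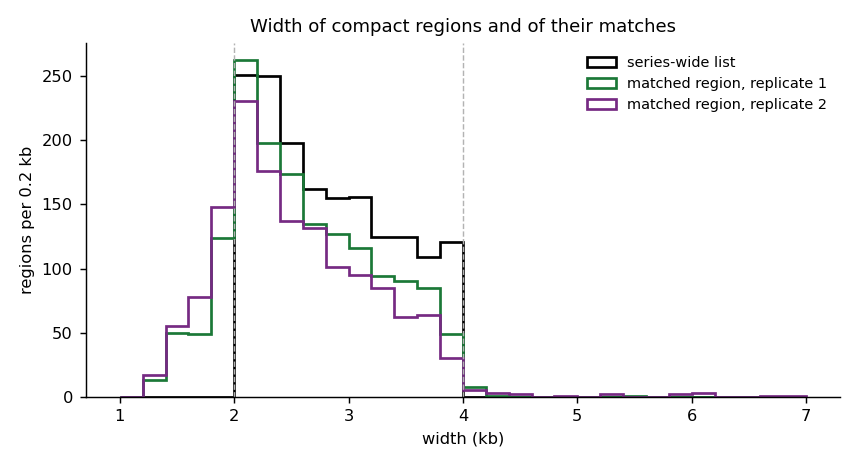
Number of compact regions per 0.2 kb of width in the series-wide list (black), and of the regions matched to them in replicate 1 (green) and replicate 2 (purple); dashed lines mark the width limits of 2 and 4 kb. The matched regions lie further left, and the share below 2 kb is 15.0% in replicate 1 and 20.8% in replicate 2.

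Read the other way, the class was less closed. Replicate 1 had 1764 regions of 2 to 4 kb off the X in its own list and replicate 2 had 1570. Of these, 75.5% and 71.0% corresponded to a compact region of the series-wide list, 16.9% and 21.2% in a region of 4 to 10 kb, and 6.86% and 6.31% in one of 10 kb or more. Of the compact regions 18 shared bases with 2 regions of replicate 1, 14 with 2 regions of replicate 2, and none (0 regions) with 3 or more. No share of all enriched regions is set beside these counts, so they are not read as a trait of the class.

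Compact regions were next set against the marked regions around them. A compact region was called isolated when no other enriched region of the series-wide list began or ended closer than 5 kb, and 317 were (19.2%, 17.4 to 21.2%), beside 18.0% of all enriched regions off the X. The share was 16.9% for regions under 2 kb and 18.0% for those of 4 to 10 kb, so the compact class stood close to its neighbours in width; this was not tested. The share depends on the distance chosen, at 36.0% with 2 kb and 9.62% with 10 kb, and it was 29.6% when only neighbours of 2 kb or more were counted. In the replicates' own lists 19.8% and 24.6% of the regions of 2 to 4 kb were isolated.

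The other 1335 compact regions were near another region, 733 of them on 1 side and 602 on both. The gap to the nearest region was 749 bp at the median among these and under 100 bp for 158. In replicate 1 the compact region and its nearest neighbour lay in a single region in 9 of the 1335 cases, in separate regions in 1089, and in 237 at least 1 of the pair had no region. In replicate 2 these counts were 38, 914 and 383. Among the 158 with gaps under 100 bp, 6 pairs were joined, 123 were separate and 29 were incomplete in replicate 1, against 20, 95 and 43 in replicate 2. The nearest region was itself compact in 459 cases (34.4%), under 2 kb in 368 (27.6%), 4 to 10 kb in 355 (26.6%) and 10 kb or more in 153 (11.5%). Beside this, all 5012 enriched regions off the X held 1652 compact ones (33.0%) and 1299 under 2 kb. They also held 1360 of 4 to 10 kb and 701 of 10 kb or more. The mix of neighbours was thus close to that of all regions, and a difference was not tested.

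Isolated compact regions had higher scores than near ones in all 3 lists. In the series-wide list the medians were 0.695 for isolated and 0.582 for near regions. At matched regions replicate 1 had medians of 0.791 for isolated and 0.694 for near ones, and replicate 2 had 0.792 for isolated and 0.680 for near ones. The difference, isolated minus near, was 0.105 ± 0.0107 (SD, n = 2) in the replicates and 0.113 in the series-wide list, and the distributions overlapped widely. Each replicate matched a different set of regions, so this SD is not a spread over the same regions. Replicates and series-wide list may rest on the same reads, and regions are not replicates of a condition, so no p-value is given. Restricted to widths of 2500 to below 3500 bp, the difference was 0.179 in the replicates and 0.184 in the series-wide list.

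Compact regions with a neighbour on 1 side stood between the others. Medians in the replicates were 0.792 ± 0.000745 for isolated regions, 0.716 ± 0.00638 for those with a neighbour on 1 side and 0.658 ± 0.0227 for those with neighbours on both (SD, n = 2 each). Each replicate matched a different set of regions, 309 and 297 among the isolated ones, so these SDs do not measure agreement at the same regions. Over the 293 isolated regions matched in both, the medians lay further apart, at 0.820 in replicate 1 and 0.794 in replicate 2. Over the 1109 near ones they were 0.739 and 0.687. By distance, the median series-wide score was 0.894 for the 83 compact regions at least 20 kb from any other region, 0.637 at 5 to 20 kb, 0.639 at 1 to 5 kb, 0.557 at 100 bp to 1 kb and 0.548 under 100 bp. The replicates had 1.00 and 1.02 in the first of these classes and 0.668 and 0.642 in the last. The classes on either side of the 5 kb limit were thus alike, and the highest class median was that of at least 20 kb. Of the 10 strongest regions named further on, 9 were near another region, beside 1335 of all 1652 compact regions. In the highest of 10 equal groups by score, 25.9% were isolated, beside 19.2% of all compact regions. On the 4 large autosomal arms alone the class of at least 20 kb held 70 regions. Their medians were 0.849 in the series-wide list, 0.980 in replicate 1 and 0.899 in replicate 2.

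Width did not differ much between the groups, with medians of 2723 bp for isolated and 2759 bp for near regions. The score difference was, however, not seen in the narrowest group of 413 compact regions, where the medians were 0.434 for isolated and 0.437 for near ones. In the next groups they were 0.759 for isolated and 0.619 for near ones, then 0.924 for isolated and 0.697 for near ones, and 1.03 for isolated and 0.781 for near ones in the widest. In replicate 2 the narrowest group had 0.512 for isolated and 0.526 for near regions, and in replicate 1 it had 0.556 for isolated and 0.546 for near ones. Whether the strength of the difference changes with width was not tested.

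**Figure D2:**
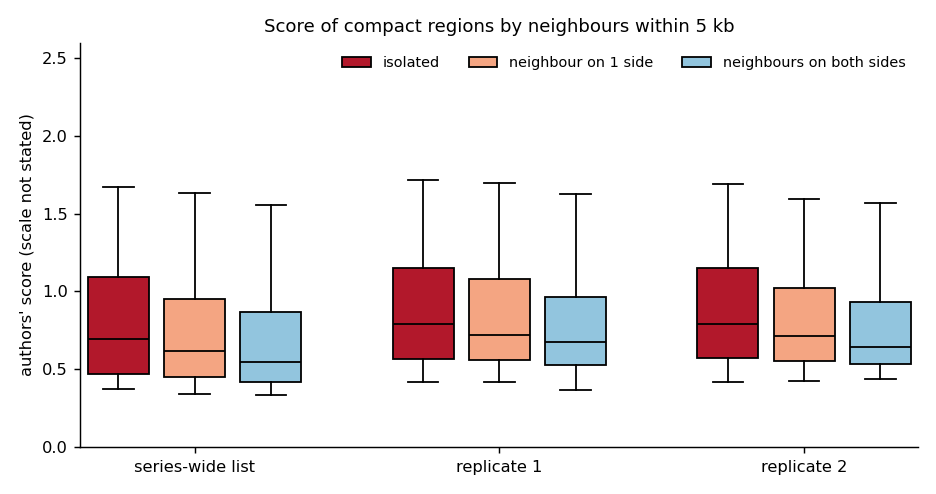
Authors' score of compact regions with no other region within 5 kb, with one on 1 side and with one on both sides, in the series-wide list and at the matched regions of both replicates. Boxes give the quartiles and the median and whiskers run from the 5th to the 95th percentile of regions; the series-wide medians are 0.695, 0.618 and 0.548 from left to right.

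The score was then set beside the width of the nearest region. Near compact regions had median scores of 0.507, 0.604, 0.623 and 0.584 where the nearest region was under 2 kb, 2 to 4 kb, 4 to 10 kb and 10 kb or more wide. The neighbours themselves scored 0.313, 0.591, 1.12 and 1.63 at the median in the same order. Beside regions of 10 kb or more and beside other compact regions, the medians were 0.704 and 0.721 in replicate 1 and 0.708 and 0.685 in replicate 2. The order of these neighbour classes thus differed between the replicates. Across the 1335 pairs Spearman's rho between the scores of the compact region and its neighbour was 0.19, and Pearson's r was 0.22; the pairs share libraries and are not independent.

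Compact regions also followed each other in short runs. On the 4 large autosomal arms, 575 of 1610 stood in 260 runs in which each lay within 5 kb of the next with no other region between. Compact regions made up 32.6% of the enriched regions of these arms, and 1311 of the 1610 were near some other region. Runs of other width classes were not counted, so the number of runs is a description and not a trait of the class. Of these runs 216 had 2 members, 33 had 3 and 11 had 4, the largest number. The first of the 11 by position were 2L from 1973342 to 1986590, 2L from 4892306 to 4906920 and 2L from 10728464 to 10740276. In the first run the scores in order of position were 1.43, 0.486, 0.506 and 0.451 in the series-wide list, so 1 strong region was followed by 3 weak ones. The third run held 4 regions within 11813 bp, with gaps of 29 to 395 bp and scores from 0.564 to 1.11, and all 4 were found in both replicates.

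The replicates were then compared region by region. A region counted as found in a replicate if enriched regions of that replicate covered 50% or more of its bases. This was met by 1585 compact regions in replicate 1 (95.9%, 94.9 to 96.8%), beside 85.1% of all enriched regions off the X, and by 1457 in replicate 2 (88.2%, 86.6 to 89.7%), beside 76.3%. Both replicates held 1428 (86.4%, 84.7 to 88.0%), beside 73.5% of all. A further 157 were found in replicate 1 only, 29 in replicate 2 only and 38 in neither (2.30%), beside 12.1% of all for neither. The class lay between its neighbours in width, of which regions under 2 kb were found in both replicates at 18.6% and those of 4 to 10 kb at 96.5%. Since wider regions scored higher and the series-wide list may share reads with the replicates, nothing is read from the distance to the background.

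Agreement went with the score. Among the 826 compact regions above the median score, 825 were found in both replicates, which is 99.9%. The exception lay on U, the sequence that joins scaffolds not placed on a chromosome, from 5536418 to 5538692; it scored 1.12, was 74.0% covered in replicate 1 with a score of 1.56 there, and shared no base with replicate 2. In the lowest of 10 equal groups by score (0.131 to 0.374) 74.1% were found in replicate 1, 44.0% in replicate 2 and 35.5% in both. In the next group 90.9% were found in replicate 1, 66.7% in replicate 2 and 60.6% in both. Regions of other widths were not grouped by score, so this course is not read as a trait of the class. Without regard to score, 96.5% of regions of 4 to 10 kb and 99.9% of those of 10 kb or more were found in both.

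**Figure D3:**
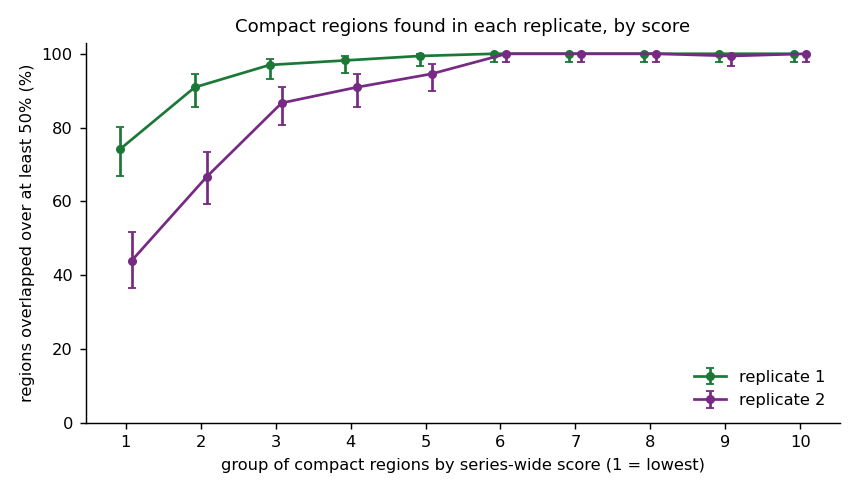
Percent of compact regions found over at least 50% of their length in replicate 1 (green) and replicate 2 (purple), for 10 equal groups of the class ordered by series-wide score; bars are 95% Wilson intervals, which cover counting error only. From group 6 on, at least 99.4% are found in each replicate, while in the lowest group the shares are 74.1% and 44.0%.

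Compact regions found in a single replicate were weak and somewhat narrow. The 157 found in replicate 1 only had a median score of 0.385 and a median width of 2469 bp, and the 29 found in replicate 2 only had 0.375 and 2651 bp, against 0.667 and 2790 bp for those found in both. The 24 that shared no base with either replicate (1.45%, beside 11.6% of all enriched regions off the X) scored 0.231 to 0.437. The highest-scoring of these were, in falling order, those on 3R at 2315534 to 2317584, 26126274 to 26128430, 1539104 to 1541144 and 26384738 to 26386952, and 1 on 3L at 7896320 to 7898320. They were 2001 to 2215 bp wide, in the narrow end of the class.

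Isolated compact regions were found in both replicates more often than near ones, at 92.4% against 85.0%. The difference was 7.41 percentage points over regions of the same 2 libraries, and no test was made. In replicate 2 alone 93.7% of isolated and 86.9% of near regions were found, and in replicate 1 alone 97.5% of isolated and 95.6% of near ones, a difference of 1.90 points. Among regions above the median score the difference was 0.157 points. Isolated regions had the higher scores, as given above, and the part of score in this difference was not tested further.

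Scores at matched places were close. Over the 1402 compact regions matched in both replicates Pearson's r between replicate scores was 0.94 and Spearman's rho 0.86, values that describe regions of the same 2 libraries. The median absolute difference was 0.0984, and the quartiles were 0.0460 and 0.170. Replicate 1 was the higher one in 909 regions (64.8%, 62.3 to 67.3%), and the median difference, replicate 1 minus replicate 2, was 0.0479 (0.0397 to 0.0604, the binomial interval of a median). That difference was 0.000674 in the lowest of 4 equal groups by series-wide score and 0.0932 in the highest, and 0.0759 among regions above the median score.

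The strongest compact regions found in both replicates were named by their series-wide score. The first lay on 2R from 4124564 to 4128354 (3791 bp), with 2.69 in the series-wide list and 2.82 and 2.68 in replicates 1 and 2, with a mean of 2.75. The next, on 3R from 1082002 to 1085850 (3849 bp), had 2.65 in the series-wide list and 2.66 ± 0.00723 in the replicates (SD, n = 2). The one after it, on 3L from 5144904 to 5148200 (3297 bp), had 2.59 and 2.61 ± 0.0341. All 3 stood within 5 kb of another region.

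The other 7 of the 10 strongest scored 2.34 to 2.58. On 3R they spanned 14731534 to 14735290, 4842674 to 4846510, 26031484 to 26035432 and 27418994 to 27422776. The others lay on 3L from 22068364 to 22071540, on 2R from 19862400 to 19865512, and on U from 7541910 to 7544676. The first of these 7 differed most between replicates, with 2.80 in replicate 1 and 2.37 in replicate 2. Their nearest regions varied: the compact region on 3R from 27418994 lay 645 bp from a domain of 17617 bp that scored 2.94, and the one from 14731534 lay 1503 bp from a region of 2201 bp that scored 0.442. On the large arms none of the 10 was isolated, beside 18.6% of all compact regions there. The region on U was isolated, but distances on U have no meaning along a chromosome.

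Isolated compact regions reached a lower maximum than near ones on the large arms, but they were fewer, at 299 against 1311. Over the whole class the upper quartile was higher for isolated regions, at 1.10, than for near ones, at 0.907. Chosen after their values were seen, the strongest isolated regions of the large arms lay on 2L and 3L. The one on 2L, from 22165810 to 22169480, had 2.21 in replicate 1 and 2.27 in replicate 2. The one on 3L, from 7644816 to 7648604, had 2.30 and 2.10. The first lay 18267 bp from the nearest other region and the second 9673 bp. The 5 most isolated compact regions of the large arms scored 0.377 to 0.949 in the series-wide list, on both sides of the class median. The one farthest from any other region, on 2R from 4332212 to 4334524, lay 151259 bp from its nearest neighbour and scored 0.443, with 0.568 and 0.465 in the replicates. It was followed by 2L from 15908780 to 15911564 (139351 bp, score 0.377), 2R from 1381044 to 1383776 (129955 bp, score 0.701), and a pair on 2L from 22959212 to 22961676 and from 22874064 to 22876274, which were each other's nearest region at 82937 bp and scored 0.949 and 0.698. The second of the 5 was found in replicate 2 but covered only to 48.9% in replicate 1.

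The position of compact regions along the chromosomes was examined last. The 4 large autosomal arms held 1610 of them, at 16.7 per Mb. The arm 2R had 394 (18.6 per Mb), 2L 376 (16.3), 3R 451 (16.2) and 3L 389 (15.8). In the replicates' own lists, regions of 2 to 4 kb were also densest on 2R, at 18.8 ± 0.602 per Mb, against 16.7 ± 1.38 on 3L, 16.1 ± 1.60 on 2L and 16.1 ± 1.93 on 3R (SD, n = 2 each). Median scores differed little, from 0.571 on 2L to 0.609 on 2R, and compact regions made up 31.3 to 34.5% of the enriched regions of each arm.

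Along the arms the density changed without a steady trend from centromere to tip. Each arm was cut into 10 equal segments counted from the centromere. Over the 4 arms together, segments 2 and 7 had the highest densities, with 20.9 and 20.3 per Mb, and segments 1 and 9 the lowest, with 13.4 and 14.0. The arms differed: in segment 9 the density was 7.17 per Mb on 3R and 13.9 to 18.3 on the other arms, and in segment 1 it was 5.30 on 3L and 13.5 to 19.0 on the others. In segment 1 compact regions made up more of what was marked, at 41.7% of the enriched regions (36.4 to 47.3%), against 26.7 to 34.7% in the other segments. The isolated share of compact regions was 27.9% in segment 1 and 15.8 to 19.8% in the others. It stood beside 26.2% of all enriched regions in segment 1 and 15.6 to 18.4% in the others, so the share of compact regions was close to that of all enriched regions there.

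**Figure D4:**
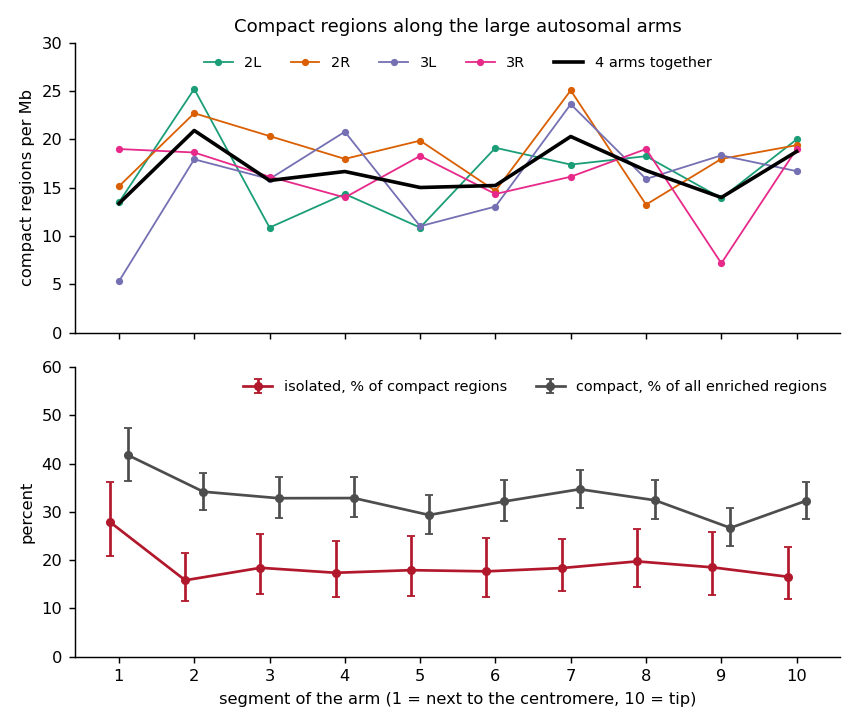
Upper panel: compact regions per Mb in 10 equal segments of each large autosomal arm, counted from the centromere, with the 4 arms together in black. Lower panel: percent of compact regions that are isolated (red) and percent of all enriched regions that are compact (grey), with 95% Wilson intervals; both are highest in the segment next to the centromere, at 27.9% and 41.7%.

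The last 1 Mb beside the centromere held 43 compact regions over the 4 arms, which is 10.8 per Mb or 0.645 times the density of the whole arms (0.468 to 0.865, exact binomial interval). For all enriched regions the same ratio was 0.431. The replicates' own lists gave 0.603 ± 0.0613 (SD, n = 2). The arms differed: 24 of the 43 lay on 3R, 12 on 2L, 7 on 2R and none (0) on 3L. On 2R 6 of the 7 were isolated, on 3R 5 of the 24. These stretches held 13 and 59 enriched regions of all widths. Their isolated share is not set beside the counts, so no trait of compact regions is read from them. Whether reads could be placed beside the centromeres as well as elsewhere was not tested.

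In bins of 1 Mb, the 95 full bins of the 4 arms held 3 to 27 compact regions with a median of 17. The highest counts were 27 on 2R from 3 to 4 Mb and from 14 to 15 Mb, and 26 in 3 bins, on 2L from 6 to 7 Mb, on 3L from 9 to 10 Mb and on 3R from 4 to 5 Mb. The lowest was 3 on 3L from 23 to 24 Mb, with 1 and 6 regions of 2 to 4 kb in the replicates' own lists, followed by 6 bins with 7 members. Across bins the counts of compact regions and of other enriched regions had a Pearson's r of 0.49 and a Spearman's rho of 0.46 (95 bins of the same libraries). No compact region lay between 23508513 and 24500691 on 3R, the longest such stretch (992179 bp). This stretch still held 23 other enriched regions, of which 12 were under 2 kb, 7 were 4 to 10 kb and 4 were 10 kb or more, with scores up to 2.26, and the replicates' own lists had 3 and 2 regions of 2 to 4 kb there.

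Chromosome 4, the small autosome that is largely packaged as heterochromatin yet carries active genes, had a high share of compact regions among its enriched regions. It held 26 compact regions, or 19.2 per Mb, which is 1.15 times the density of the large autosomal arms, with an exact binomial interval of 0.752 to 1.70 for counting error. For all enriched regions the ratio was 0.666. Compact regions were 26 of the 46 enriched regions of chromosome 4 (56.5%, 42.2 to 69.8%), against 32.6% (31.3 to 33.9%) on the large arms; the remaining 20 were 12 regions under 2 kb, 7 of 4 to 10 kb and 1 of 10 kb or more. In the replicates' own lists the share was 72.2% and 57.1% on chromosome 4, against 36.2% and 36.4% on the large arms.

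The compact regions of chromosome 4 had a median score of 0.815, against 0.594 on the large arms. Of the 26, 24 were found in both replicates, beside 32 of all 46 enriched regions of chromosome 4. On the large arms 86.3% of compact regions were found in both. The strongest lay from 1052340 to 1055640, with 1.80 in the series-wide list, 1.90 in replicate 1 and 1.56 in replicate 2. The next lay from 806046 to 808796 (1.65, with 1.57 and 1.83), from 462600 to 465192 (1.64, with 1.73 and 1.56), from 85948 to 88650 (1.54, with 1.58 and 1.51) and from 1049826 to 1052316 (1.39, with 1.51 in replicate 1 and no match in replicate 2). The first and the last of these 5 are neighbours with 23 bp between them. The last was not missing from replicate 2, where it was 100% covered without a match of its own. The first, 3301 bp wide, was matched there to a region of 5812 bp. Its score of 1.56 in replicate 2 belongs to that wider region and does not describe the first alone. On chromosome 4 isolated regions did not score higher, with medians of 0.709 for 7 isolated and 0.834 for 19 near ones.

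On chromosome 4 the replicates differed in width the other way than on the large arms. Of 21 compact regions of chromosome 4 matched in both replicates, 20 were wider in replicate 2, against 425 of 1366 (31.1%) on the large arms. The median widths of the matches were 2332 bp in replicate 1 and 2935 bp in replicate 2 on chromosome 4, and 2553 bp in replicate 1 and 2414.5 bp in replicate 2 on the large arms. The score was higher in replicate 2 for 14 of the 21. In segment 1 of the large arms the median score was also higher in replicate 2, at 0.769, than in replicate 1, at 0.697. That order of medians was not particular to the centromere end. Replicate 2 was higher too in segment 7 (0.668 against 0.662), segment 9 (0.692 against 0.682) and segment 10 at the tip (0.729 against 0.694). It was lower in the remaining segments. These segment medians cover the regions matched in each replicate, which are not the same regions. Over the whole class such medians were 0.704 in both replicates. Over the 1402 regions matched in both they were 0.753 in replicate 1 and 0.709 in replicate 2. The segment medians therefore do not show which replicate scored higher at the same places. Of the 5 compact regions with the largest score difference between replicates, 3 lay on chromosome 4, from 592166 to 595568 (0.259 in replicate 1 and 1.30 in replicate 2), from 630942 to 633670 (0.348 and 1.29) and from 466492 to 468558 (0.136 and 0.748). The other 2 lay on 2L, from 21572758 to 21575952 (0.323 and 1.14) and from 10258234 to 10261688 (0.964 and 1.57), and all 5 were higher in replicate 2. The largest difference, from 592166, set unlike regions side by side. That compact region of 3403 bp was matched to 3019 bp in replicate 1 but to 5963 bp in replicate 2. Its neighbour 25 bp away, from 588870 to 592140, was 75.6% covered in replicate 2 without a match of its own. With 2 libraries, no test separates a difference of chromosome 4 from a difference between the libraries.

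**Figure D5:**
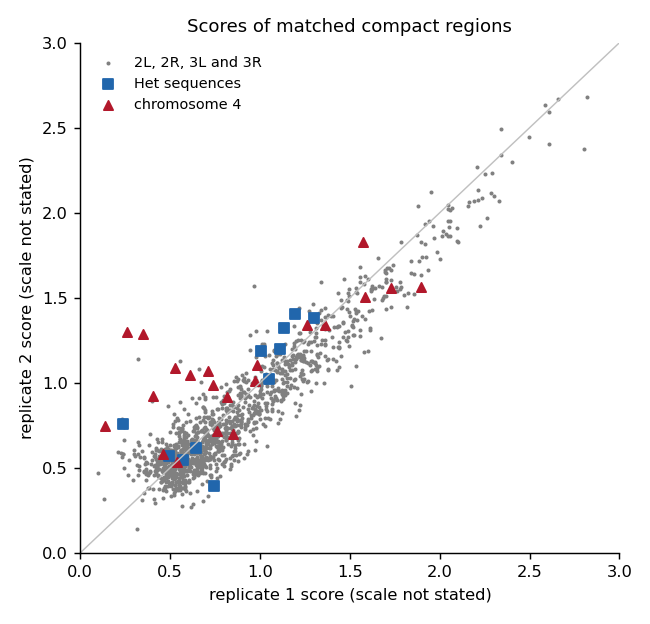
Score of matched compact regions in replicate 1 (x axis) and replicate 2 (y axis) on the large autosomal arms (grey), the Het sequences (blue squares) and chromosome 4 (red triangles); the grey line marks equal scores. On the large arms 65.6% of regions are higher in replicate 1, while 14 of 21 on chromosome 4 are higher in replicate 2.

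The heterochromatin sequences of the build (2LHet, 2RHet, 3LHet, 3RHet, XHet and YHet) were sparsely marked, and what was marked was mostly compact. Over 9.28 Mb they held 17 enriched regions, of which 11 were compact (64.7%, 41.3 to 82.7%), at 1.19 per Mb against 16.7 on the large arms. Of the 11, 4 lay on 2RHet, 4 on 3LHet and 1 each on 2LHet, XHet and YHet, and 3RHet had none (0). All 11 were found in both replicates, beside 12 of all 17 enriched regions there. Isolation was common to what was marked on these sequences, with 8 of the 11 compact regions and 13 of all 17 isolated. Their median score was 1.01, against 0.594 on the large arms, and the lowest was 0.373. These are few regions, and how well reads could be placed on these repeat-rich sequences was not tested.

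The 5 highest-scoring lay on 3LHet from 2397226 to 2399834 and from 593914 to 596812, on 2RHet from 2901276 to 2903908 and from 469890 to 472530, and on 2LHet from 167238 to 169630. Their scores in replicates 1 and 2 were 1.30 and 1.38, 1.20 and 1.41, 1.13 and 1.32, 1.11 and 1.20, and 1.00 and 1.19 in that order. All 5 were higher in replicate 2, and over the 11 regions 7 were. As on chromosome 4, most (8 of the 11) were wider in replicate 2, whose median width was 2618 bp against 2309 bp in replicate 1. The region on 2RHet from 2901276 stood alone at 2428745 bp from the nearest other region. The weakest, on 2RHet from 198730 to 201296, scored 0.239 in replicate 1, where it was 1666 bp wide, and 0.758 in replicate 2, where it was 3172 bp wide.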

How the data were processed

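The labels describe 2 H3K79me3 ChIP samples and 2 inputs; the lists of both ChIP replicates and of the whole series were analysed. Per the submitters' processing notes reads were handled with Bowtie 0.12.7, and per the file headers the build is FlyBase r5. Caller, threshold, use of the inputs and any pooling: not given in the sources used here. The deposited score, 1 number a region from the authors, has an unstated scale and was used only to describe, rank and split regions. The lists hold no read counts, so the depth is unknown.

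The members and comparisons were chosen with earlier results of these data known. Regions were named by the 10 highest scores in both replicates, the 5 most isolated on the large arms, the 5 largest replicate differences, the 5 strongest that share no base with either replicate, the 5 strongest on chromosome 4 and in the Het sequences, the longest runs and the extreme bins, with ties listed by position or counted. Distances are bases between region ends. Intervals are 95% Wilson or exact binomial ones and cover counting error only; regions of a list are not independent. No test across samples was made, as 2 values cannot give an exact two-sided sign-flip p under 0.5. Python 3.11.15, numpy 2.4.6, pandas 2.3.3, scipy 1.17.1 and matplotlib 3.10.9 were used, and overlap, matching and gap functions were tested on simulated data. Alternatives changed the overlap, the distance, the width limits, the score threshold, the arms and the replicate used.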

Additional observations from a re-analysis of the deposited data

Results flagged for a closer look

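The series-wide list also holds regions called depleted, which the comparisons of enriched regions do not use. Of the 5 that are not on X, 3 lay within 5 kb of a compact region. The remaining ones, on 2R and 3L, lay 30133 bp and 22905 bp from the nearest compact region. No background share was set beside this count, so no association is read from it. On 3R from 12977106 to 12978706 (score -0.0622) the compact region from 12972318 to 12975936 was 1169 bp away and scored 1.51 in replicate 1 and 1.33 in replicate 2. On 3LHet from 599966 to 601810 (score -0.0357) the gap was 3153 bp, to the compact region from 593914 to 596812 described above. On 3L from 16573126 to 16574786 (score -0.000436) it was 3207 bp, to a compact region with 1.07 and 1.08 in the replicates. Replicate 1 has 2 regions called depleted and replicate 2 has none (0).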

How the results depend on the processing

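The share of compact regions found in both replicates (86.4%) was 88.7% with an overlap of 1 base, 64.3% with 80%, 99.9% above the median score and 89.0% at widths of 2500 to below 3500 bp; single replicates gave 88.2 to 95.9%. The isolated share (19.2%) was 36.0% with 2000 bp, 9.62% with 10000 bp, 22.9% above the median score and 29.6% with neighbours of 2000 bp or more, and 19.8 to 24.6% in single replicates. The score difference, isolated minus near, kept its direction under every alternative run. In the series-wide list it was 0.146 with 10000 bp, 0.184 at the inner widths, 0.0822 among regions found in both replicates and 0.0356 per kb of width. In the replicate mean (0.105) it was 0.0890 with 2000 bp, 0.151 with 10000 bp, 0.179 at the inner widths, 0.0931 among regions found in both, 0.0278 per kb of width, and 0.0972 to 0.112 in single replicates. The difference in replicate overlap (7.41 points) was 0.157 above the median score and 1.90 to 6.80 in single replicates. The share of matches that are 2 to 4 kb wide was 90.2% with 80% of both lengths, 98.0% above the median score and 77.8 to 84.4% in single replicates. The median score difference between replicates was 0.0610 with 80% of both lengths and 0.0759 above the median score. The density ratio of chromosome 4 was 1.71 above the median score and 1.08 to 1.12 in single replicates, and that beside the centromere 0.560 to 0.647. Values per kb of width are in another unit than the score. The other alternatives stayed within the interval or the spread between replicates, and the causes of the shifts were not tested. No paired analysis was possible because the inputs have no values here and no result comes from a test.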

Other observations

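The unplaced sequence U held 5 compact regions among 13 enriched regions, with scores from 1.03 to 2.37, all above the median of the class. The strongest, from 7541910 to 7544676, scored 2.45 in replicate 1 and 2.30 in replicate 2, and the next, from 6383944 to 6387294, scored 2.05 and 1.95. Where these scaffolds lie in the genome is not given in the build.

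On the large autosomal arms, 714 of 1366 matched compact regions (52.3%, 49.6 to 54.9%) scored lower in the series-wide list than in either replicate. Matched regions were higher than the series-wide score in 87.1% of cases in replicate 1 and in 65.1% in replicate 2. All start and end positions of compact regions in the series-wide list were even numbers.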
